A study of Mus musculus with 6 samples.

Results

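The complement genes described here were 9 genes chosen by symbol from the 54532 genes of the deposited table, namely C1ra, C1rl, C1s1, C2, C3, C4b, Cfb, Serping1 and Cd55. All 9 were among the 13423 genes whose mean FPKM (counted fragments per kilobase of gene, scaled to library size) over the 6 libraries was at least 0.5. The libraries came from mouse aortic smooth muscle cells (MASMCs), labelled as wild-type vascular smooth muscle cells, that had received an adenoviral vector. In 3 libraries the vector carried a control plasmid (Ad-Con) and in 3 an overexpression plasmid for pyruvate dehydrogenase kinase 4 (Ad-PDK4). The study's text states that these cells were also exposed to angiotensin II, a vasoconstrictor peptide, which the sample labels do not mention, so both groups share the vector and, per that text, the peptide. The study's text calls the 3 libraries of a group biological replicates, while the sample labels do not say whether they came from separate cultures or animals, and p-values measure the spread between these libraries.

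Complement is a cascade of plasma proteins in which proteases activate each other by cleavage. In the classical pathway the proteases C1r and C1s are held in a complex with C1q. Of these, C1s cleaves C4 and C2, whose fragments form an enzyme that cleaves C3. In the alternative pathway factor B joins cleaved C3 to form a second enzyme of the same kind, and membrane and plasma inhibitors restrain both. The liver makes most circulating complement, and cells of the vessel wall can also transcribe several of its components.

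The totals recovered from the FPKM values were 17588942 to 21861872 reads per library, so that 1 read in a gene of 1 kb was worth 0.0453 to 0.0571 FPKM. Pdk4 itself read 10.0 ± 0.469 FPKM (SD, n = 3) in Ad-Con and 7.48 ± 0.162 (SD, n = 3) in the libraries labelled Ad-PDK4. Its log2 change was -0.42 (SE 0.06, limma adjusted p = 0.0011), which is against the label, and the sources used here do not say whether transcripts of the vector were counted with the mouse gene. The group is therefore called by its label throughout. Of the smooth muscle markers, Acta2 read 78.0 FPKM in Ad-Con and 36.2 in the libraries labelled Ad-PDK4, while Tagln, Myh11 and Cnn1 stayed below 0.5 FPKM on average in both groups.

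Most of the 9 chosen complement transcripts were more abundant in the libraries labelled Ad-PDK4. Of these, C3 was the most changed in level, and the C1 proteases, C4b, C2, Cfb and the C1 inhibitor gene Serping1 were also higher. The membrane regulator Cd55 was the member that fell. Every log2 change here is the group labelled Ad-PDK4 minus Ad-Con on the log2(FPKM + 0.1) scale. On it 8 of the 9 genes were higher at a limma adjusted p below 0.05, against 21.8% of all tested genes, and 1 was lower, against 20.8%. In either direction 9 of 9 were called, against a background of 42.7%. With a fold change of at least 2 as a further condition, 7 of the 9 were higher and 0 lower, against 3.95% and 2.68% of all tested genes. The ranges of the 2 groups did not overlap for 9 of 9 genes, which was also true of 54.3% of all tested genes. The median log2 change of the 9 genes was 1.66, and that of all tested genes was -0.003. Cfb passed the filter on low values only through the libraries labelled Ad-PDK4, so it had to differ, and without it 6 of 8 genes were at least 2-fold higher. The genes were named with earlier results of these data known, so none of these counts is independent evidence of a direction.

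**Figure D1:**
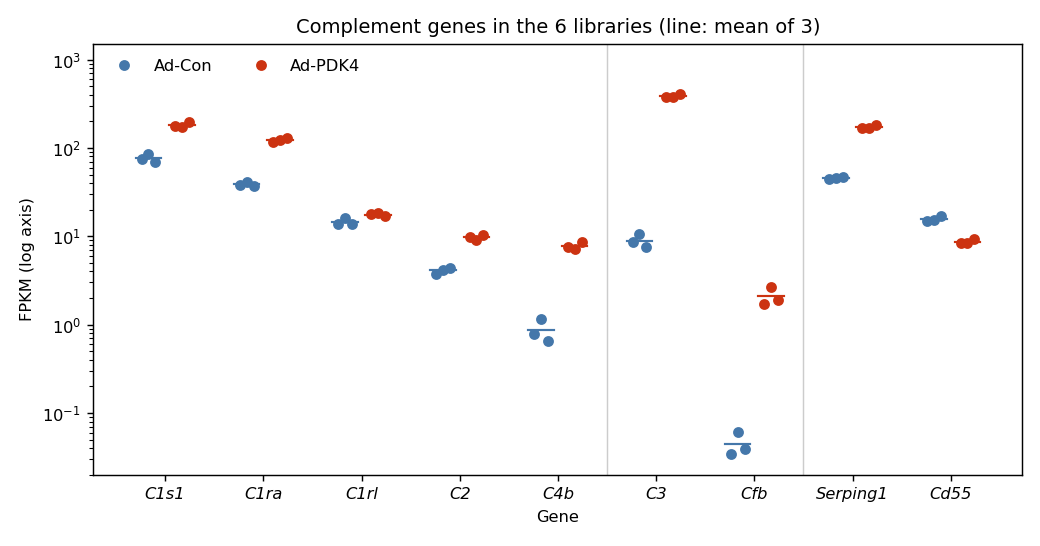
FPKM of the 9 complement genes in each library, on a log axis, with 1 point per library and a horizontal line at the group mean. In 8 genes all 3 libraries labelled Ad-PDK4 sit above all 3 Ad-Con libraries, and in Cd55 they sit below.

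C3 (ENSMUSG00000024164, minus strand at chr17:57203970-57228136 on GRCm38) encodes the protein on which all activation routes converge. It read 8.62, 10.6 and 7.49 FPKM in Ad-Con replicates 1, 2 and 3 and 378, 376 and 408 FPKM in the libraries labelled Ad-PDK4. All libraries of the latter group were far above all Ad-Con libraries, and the spread within each group was small beside the gap. The means were 8.91 ± 1.59 and 388 ± 18.0 FPKM (SD, n = 3 each), a log2 change of 5.44 (SE 0.12, limma adjusted p = 1.5e-07). These values rested on 698 to 960 reads per Ad-Con library and 33883 to 46381 reads per library labelled Ad-PDK4. Of all tested genes, 16 had a higher log2 change than C3. By mean FPKM C3 moved from rank 5468 in Ad-Con to rank 77 among the tested genes. In these bulk libraries, more cells that transcribe a gene and more RNA of that gene per cell cannot be told apart.

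Promoter sequences from RefSeq (GRCm38.p6), from 250 bases before to 50 after a transcription start, were matched by symbol for C1ra, C1rl, C1s1, C3 and Cd55, 5 of the 9 genes. Those of C2, C4b, Cfb and Serping1 were not matched. Both strands were searched for 4 letter patterns: GAAANNGAA for interferon-stimulated response elements, TTCNNNGAA for STAT factors, GGGNNTTTC for NF-kB and TTGCNNAA for C/EBP factors. These are families of transcription factors known to act in inflammation and interferon responses. The patterns were present in 8.56%, 8.30%, 4.36% and 10.8% of all 32851 promoters of the same length. The promoters of the gene with the largest fitted change (C3), of neighbours with a large and a small change (C1ra and C1rl) and of the gene that fell (Cd55) are shown 5′ to 3′ with matches in capitals, at chr17:57228087-57228386 (minus strand), chr6:124512371-124512670 (plus), chr6:124492863-124493162 (plus) and chr1:130462695-130462994 (minus).
C3: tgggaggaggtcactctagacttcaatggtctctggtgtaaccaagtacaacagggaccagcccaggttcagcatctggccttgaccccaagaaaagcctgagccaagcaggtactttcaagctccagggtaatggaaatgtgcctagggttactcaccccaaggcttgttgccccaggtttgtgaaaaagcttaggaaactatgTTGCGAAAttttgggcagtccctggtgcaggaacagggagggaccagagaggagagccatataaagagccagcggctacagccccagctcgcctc
C1ra: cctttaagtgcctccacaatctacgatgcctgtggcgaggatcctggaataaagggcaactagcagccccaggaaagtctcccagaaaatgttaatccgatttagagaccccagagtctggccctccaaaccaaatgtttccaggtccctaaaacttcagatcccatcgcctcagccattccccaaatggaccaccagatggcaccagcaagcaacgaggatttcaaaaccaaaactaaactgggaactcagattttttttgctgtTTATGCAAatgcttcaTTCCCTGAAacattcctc
C1rl: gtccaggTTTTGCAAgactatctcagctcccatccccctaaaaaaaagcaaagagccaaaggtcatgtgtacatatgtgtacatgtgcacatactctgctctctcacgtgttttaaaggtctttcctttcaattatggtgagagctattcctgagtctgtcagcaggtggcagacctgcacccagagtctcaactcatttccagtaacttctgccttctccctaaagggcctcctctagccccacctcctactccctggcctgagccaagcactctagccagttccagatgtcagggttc
Cd55: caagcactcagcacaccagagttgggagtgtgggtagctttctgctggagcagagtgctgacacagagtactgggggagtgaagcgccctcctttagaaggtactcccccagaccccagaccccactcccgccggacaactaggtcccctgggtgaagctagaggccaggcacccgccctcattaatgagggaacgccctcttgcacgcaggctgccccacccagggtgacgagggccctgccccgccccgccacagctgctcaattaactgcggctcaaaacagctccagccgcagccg
Counting the start as position 0, the C3 promoter held a C/EBP pattern at -45 to -38. C1ra held a C/EBP pattern on the minus strand at 16 to 23 and a STAT pattern at 32 to 40, both after a RefSeq start that lies inside the gene as the deposited table bounds it. C1rl held a C/EBP pattern on the minus strand at -243 to -236. C1s1, which has 2 promoter entries (chr6:124542310-124542609 and chr6:124542272-124542571, minus strand), held one at -242 to -235 of the former and none of the 4 patterns in the latter. The Cd55 window held none of the 4 patterns, and neither GAAANNGAA nor GGGNNTTTC occurred in any window of the 5 genes. A match describes letters only and does not show binding.

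C1r and C1s are the serine proteases of the C1 complex, and their genes lie side by side on chromosome 6. C1s1 (ENSMUSG00000038521, minus strand at chr6:124530345-124542359) was the most abundant of the 9 genes in Ad-Con, at 74.0, 85.6 and 69.8 FPKM. The libraries labelled Ad-PDK4 read 179, 172 and 195 FPKM. All 3 were above the Ad-Con range, with means of 76.5 ± 8.19 and 182 ± 12.0 FPKM (SD, n = 3 each) and a log2 change of 1.25 (SE 0.08, limma adjusted p = 1.9e-05). C1ra (ENSMUSG00000055172, plus strand at chr6:124512405-124523443) read 37.7, 41.0 and 37.5 FPKM in Ad-Con and 115, 123 and 131 FPKM in the libraries labelled Ad-PDK4. The groups did not overlap, and the log2 change was 1.66 (SE 0.06, limma adjusted p = 8.9e-07).

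C1rl (ENSMUSG00000038527, plus strand at chr6:124493113-124510643), which encodes a C1r-like protease, lies next to C1ra and changed little. It read 13.9, 16.1 and 13.6 FPKM in Ad-Con and 17.7, 18.4 and 16.8 FPKM in the libraries labelled Ad-PDK4. The lowest library labelled Ad-PDK4 was just above the highest Ad-Con library. Its log2 change was 0.28 (SE 0.08, limma adjusted p = 0.02), and this call was lost when 1 library was left out in 4 of 6 cases. Without Ad-Con replicate 1 the adjusted p was 0.068, without Ad-Con replicate 3 it was 0.071, without replicate 1 labelled Ad-PDK4 it was 0.06, and without replicate 2 labelled Ad-PDK4 it was 0.054. The direction was kept in all 6 cases.

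C4b and C2 encode the substrates of C1s, and Cfb encodes factor B, the counterpart of C2 in the alternative pathway. The 3 genes lie on chromosome 17 in the class III region of the major histocompatibility complex. C2 (ENSMUSG00000024371, minus strand at chr17:34862604-34898265) read 3.78, 4.19 and 4.43 FPKM in Ad-Con and 9.71, 9.02 and 10.4 FPKM in the libraries labelled Ad-PDK4. These groups were well apart, with a log2 change of 1.21 (SE 0.08, limma adjusted p = 2.4e-05). C4b (ENSMUSG00000073418, minus strand at chr17:34728380-34743882) read 0.785, 1.16 and 0.659 FPKM in Ad-Con, from 68 to 116 reads. In the libraries labelled Ad-PDK4 it read 7.55, 7.16 and 8.73 FPKM. C4b was thus scarce in Ad-Con, and its log2 change was 3.06 (SE 0.19, limma adjusted p = 1.1e-05). By deposited FPKM, C4b exceeded the Ad-Con level of C2 in all 3 libraries labelled Ad-PDK4. Over bases outside other genes' exons, C2 averaged 7.79 FPKM in Ad-Con, so that order is uncertain.

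Cfb (ENSMUSG00000090231, minus strand at chr17:34856374-34862518) had 2, 3 and 2 reads in the Ad-Con libraries, which is at or below the detection floor of 3 reads per library. The libraries labelled Ad-PDK4 held 87, 133 and 118 reads, or 1.69, 2.69 and 1.89 FPKM. Against 3 reads in each Ad-Con library, Cfb was at least 36.6-fold higher in the libraries labelled Ad-PDK4. The fitted log2 change was 3.90 (SE 0.32, limma adjusted p = 5.4e-05), a value that depends on the pseudocount and ran from 1.55 with a pseudocount of 1 to 5.27 with limma-voom on recovered reads. With Cfb set to its bound the median of the 9 genes remained 1.66.

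Serping1 encodes C1 inhibitor, the serpin that inactivates C1r and C1s. The gene (ENSMUSG00000023224, minus strand at chr2:84765387-84775444) read 45.1, 45.8 and 47.1 FPKM in Ad-Con and 168, 170 and 184 FPKM in the libraries labelled Ad-PDK4. Its Ad-Con libraries varied least of the 9 genes relative to the mean, at 46.0 ± 1.05 FPKM (SD, n = 3). The log2 change was 1.92 (SE 0.05, limma adjusted p = 1.5e-07). Serping1 therefore had a larger log2 change than either protease gene it opposes, and the ratio of the levels moved in every library. C1s1 divided by Serping1 was 1.64, 1.87 and 1.48 in Ad-Con and 1.06, 1.01 and 1.06 in the libraries labelled Ad-PDK4. C1ra divided by Serping1 was 0.837, 0.896 and 0.795 in Ad-Con and 0.686, 0.723 and 0.712 in the libraries labelled Ad-PDK4. Neither ratio overlapped between groups, and neither was tested.

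Cd55 encodes decay-accelerating factor, a membrane protein that dissociates the enzymes that cleave C3. The gene (ENSMUSG00000026399, minus strand at chr1:130439027-130462744) read 15.1, 15.2 and 17.03 FPKM in Ad-Con and 8.30, 8.41 and 9.24 FPKM in the libraries labelled Ad-PDK4. All Ad-Con libraries were above all others, and Cd55 fell by 0.86 on the log2 scale (SE 0.07, limma adjusted p = 6.2e-05), short of a 2-fold change. C3 divided by Cd55 was 0.572, 0.698 and 0.440 in Ad-Con and 45.5, 44.8 and 44.2 in the libraries labelled Ad-PDK4, so that C3 went from the less abundant to the more abundant transcript of the pair per kilobase.

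The order of levels within a library changed accordingly. In Ad-Con it ran C1s1, Serping1, C1ra, Cd55, C1rl, C3, C2, C4b and Cfb by mean FPKM, and of these neighbours only Cd55 and C1rl overlapped in range. In the libraries labelled Ad-PDK4 it ran C3, C1s1, Serping1, C1ra, C1rl, C2, Cd55, C4b and Cfb. There C1s1 overlapped Serping1, C2 overlapped Cd55, and Cd55 overlapped C4b. The summed level of the 9 genes was 198 to 220 FPKM in Ad-Con and 885 to 965 FPKM in the libraries labelled Ad-PDK4.

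Some of these genes share sequence with close copies or with overlapping annotated genes, and reads from those stretches can be assigned to either or dropped. A read-through gene, Gm20547, lies on the same strand as C2 and Cfb. Its exons cover 79.5% of the exon bases of Cfb and 42.8% of those of C2, and it held 0 reads in every library. Dividing by the bases outside any other gene's exons gave Cfb 0.218 FPKM in Ad-Con and 10.2 in the libraries labelled Ad-PDK4, and C2 7.79 and 18.3 FPKM. The levels of both genes relative to the others are thus uncertain. A factor common to all libraries cancels in a plain ratio of FPKM, and largely in the fitted change of C2. In the fitted change of Cfb it does not cancel, since Cfb in Ad-Con lay below the pseudocount of 0.1. C1s1 shares 18.4% of its exon bases with Gm16567 and C2 4.16% with Zbtb12, both on the opposite strand, and reads from those bases cannot be told apart without strand. C1ra shared 48.0% of its 50-base windows with C1rb, C1s1 shared 24.3% with C1s2, C4b shared 35.2% with C4a, and Cd55 shared 10.7% with Cd55b, so the split of reads between these 4 genes and their copies is uncertain. C3, Serping1 and C1rl shared 0 windows with other genes.

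The copies themselves were low. C1s2 held 12 to 14 reads in Ad-Con and 21 to 31 in the libraries labelled Ad-PDK4, C4a held 2 to 14 and 11 to 17 reads, and Cd55b held 0 reads everywhere. C1rb held 6, 14 and 6 reads in Ad-Con and 465, 29 and 41 reads in the libraries labelled Ad-PDK4. Its value rested on replicate 1 labelled Ad-PDK4, and its log2 change of 2.77 (SE 1.06) did not pass the test (limma adjusted p = 0.085). Without that library it was 1.54 (limma adjusted p = 0.05). In the same library C1ra, the gene that C1rb resembles, was the lowest of the 3 labelled Ad-PDK4.

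Most of the other complement genes did not pass the test. Lists of 55 complement genes held 46 others besides the 9, of which 13 were tested: 1 was higher, 2 were lower and 10 did not pass, or 23.1% called against the background of 42.7%. Their median log2 change was -0.002. These genes are what remained after the 9 were named with earlier results of these data known. The lower share called among them is thus no independent contrast with the 9. Clu, which encodes clusterin, a fluid-phase inhibitor of the terminal complex, rose from 44.2 ± 8.12 to 107 ± 5.76 FPKM (SD, n = 3 each), a log2 change of 1.29 (limma adjusted p = 0.00021). Itgb2, the beta chain of the leukocyte integrins that include complement receptor CR3, fell by 0.33 on the log2 scale from 7.17 to 5.68 FPKM (limma adjusted p = 0.0097). C1qbp, a mostly mitochondrial protein that binds C1q, fell by 0.20 from 43.8 to 38.1 FPKM (limma adjusted p = 0.023), a call that was lost without any 1 of the Ad-Con libraries or without replicate 1 labelled Ad-PDK4 (limma adjusted p from 0.054 to 0.082).

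**Figure D2:**
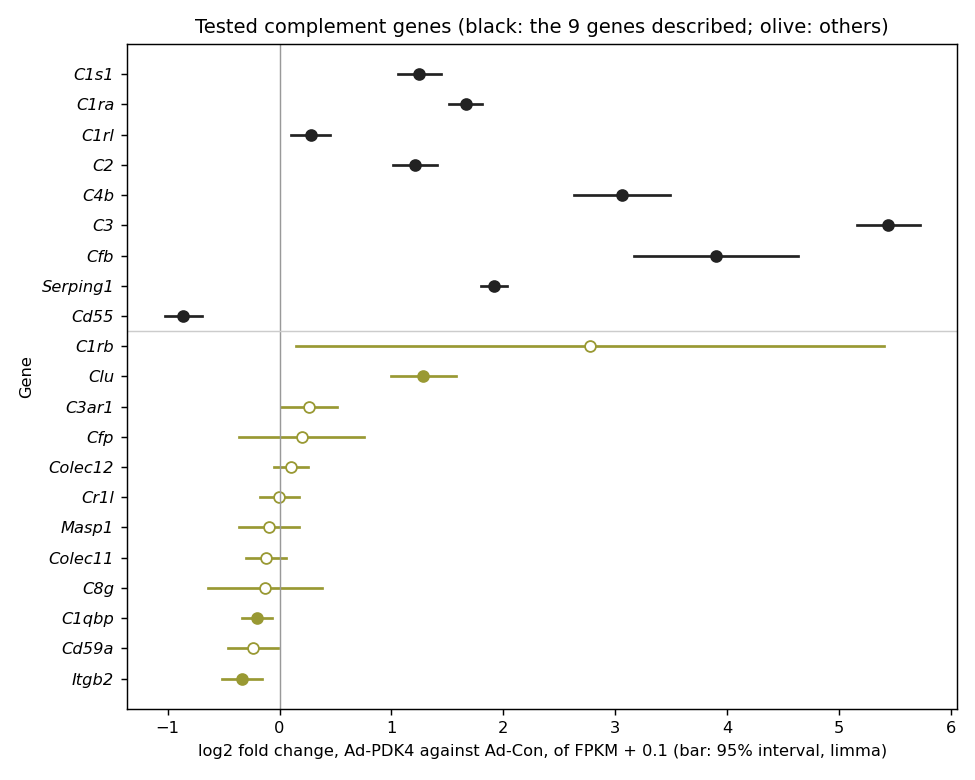
Log2 fold change, on the log2(FPKM + 0.1) scale, of the 9 genes and 12 of the 13 other tested complement genes, with 95% confidence intervals from limma and filled points at an adjusted p below 0.05. The members, chosen with earlier results of these data known, run from -0.86 (Cd55) to 5.44 (C3). Most other complement genes lie near 0, and C1rb has a wide interval.

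By role, 5 of 6 tested classical pathway genes were called higher, all 5 of them members, against 21.8% of all tested genes. C1rb also had a positive log2 change (2.77) but did not pass (limma adjusted p = 0.085). Of 3 tested amplification genes, C3 and Cfb were called higher. Cfb had to differ, since it passed the filter on low values only through the libraries labelled Ad-PDK4. Properdin (Cfp), which stabilises the alternative pathway enzyme, had a log2 change of 0.20 (limma adjusted p = 0.55). Of the lectin pathway genes 0 of 3 passed: Colec12 was at 0.10 (77.3 and 83.0 FPKM), Colec11 at -0.12 (17.3 and 15.9 FPKM) and Masp1 at -0.10 (1.90 and 1.77 FPKM). The only terminal component tested, C8g, was at -0.13 (limma adjusted p = 0.66). Among regulators, Cr1l, the rodent membrane regulator also called Crry, read 6.398 and 6.391 FPKM, and Cd59a, which blocks the membrane attack complex, read 4.77 and 4.02 FPKM (limma adjusted p = 0.081). Of the membrane regulators tested, Cd55 was thus the one past the threshold, although whether its change differed from those of Cr1l and Cd59a was not tested. Of the receptors, C3ar1, which binds the C3a fragment, was at 0.26 (limma adjusted p = 0.087). The other 33 listed genes were too low to test, with 15 at 0 reads in every library. C1qa, C1qb and C1qc, whose products form the recognition part of the C1 complex, were among these 15, and a count of 0 allows up to 3 reads per library.

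Genes next to the complement genes were read as well, since 6 of the 9 lie in 2 clusters. Within 100 kb of the 9 genes, 25 other protein-coding genes were tested, and 9 were higher, 4 were lower and 12 did not pass. Of all tested genes, 21.8% were higher and 20.8% lower, or 42.7% called in either direction. Beside the C1 protease genes, Pex5 (-0.16) and C1rb did not pass. Around C4b, Cfb and C2, 3 of 13 neighbours rose, namely Hspa1b (1.36), Hspa1a (0.33) and Atf6b (0.31), and 3 fell, namely Tnxb (-0.88), Neu1 (-0.40) and Fkbpl (-0.30). Hspa1a and Hspa1b are near-identical heat shock genes whose reads can be split between them, and the call of Hspa1a was lost without Ad-Con replicate 1 or 2 or replicate 1 labelled Ad-PDK4 (limma adjusted p from 0.06 to 0.065). The other 7 neighbours did not pass, among them Skiv2l (-0.15), Stk19 (-0.03), Dxo (-0.26) and Nelfe (0.05), which lie between C4b and Cfb, and Zbtb12 (-0.13), Ehmt2 (-0.14) and Lsm2 (-0.06) beyond Cfb. Gpr108 (0.11) and Trip10 (0.07), near C3, did not pass either. Around Serping1, 6 of 8 tested neighbours rose, with Ube2l6, an enzyme of the ubiquitin-like modifier ISG15, going from 20.01 to 109 FPKM, a log2 change of 2.44. The others were Gm19426 (1.88), Clp1 (0.39), Med19 (0.36), Zdhhc5 (0.31) and Tmx2 (0.29), while Timm10 (0.11) did not pass and Ypel4 fell (-0.40). The call of Ypel4 was lost without Ad-Con replicate 1 or 3 or without replicate 1 or 3 labelled Ad-PDK4 (limma adjusted p from 0.09 to 0.12).

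**Figure D3:**
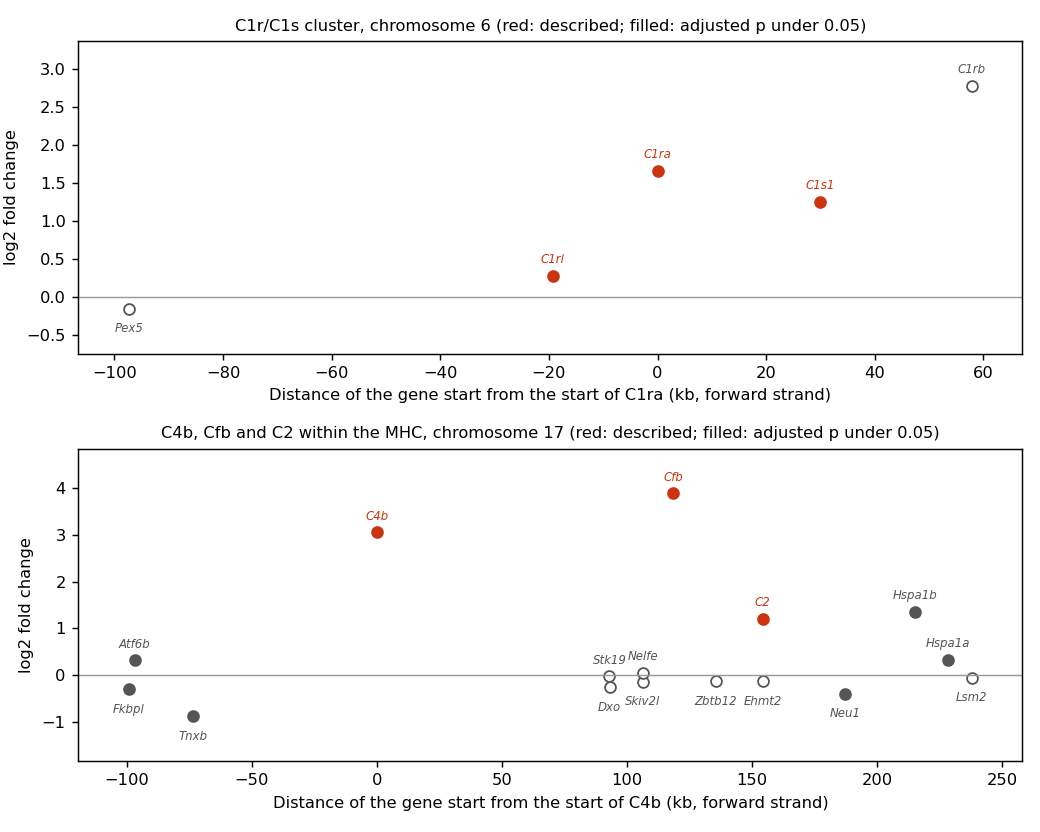
Log2 fold change of tested genes within 100 kb of the C1 protease cluster (upper panel) and of C4b, Cfb and C2 (lower panel), against the distance of their starts in kilobases, with members in red and filled points at an adjusted p below 0.05. The highest red points are at 1.66 and 3.90 and the lowest, C1rl, is at 0.28. Neighbours other than C1rb and Hspa1b stay below 0.5.

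Transcription factors known to act on complement promoters were listed as well, with earlier results of these data known. Of 12 tested, 11 were higher and 0 were lower, against 21.8% and 20.8% of all tested genes. The bile acid receptor gene Nr1h4 did not pass (-0.24, limma adjusted p = 0.24). The median log2 change of the 12 factors was 0.9996. The largest rises were those of Cebpd (2.98 to 23.9 FPKM, 2.95 on the log2 scale) and Stat2 (8.38 to 52.1 FPKM, 2.62). The call of Rela, the smallest of the 11, was lost without any 1 of 5 libraries, all but replicate 3 labelled Ad-PDK4 (limma adjusted p from 0.059 to 0.1). The part of these factors in the complement values was not tested.

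Across the 6 libraries the 3 genes with the pattern most like C3, of 7730 compared, were Psmb8, Sulf1 and Icam1, with Pearson r of 0.9998, 0.9998 and 0.9997 on the log2 scale. The same measure was above 0.99 for 329 genes. With 2 groups of libraries this correlation mostly describes the gap between groups. Psmb8, an immunoproteasome subunit, went from 1.68 to 40.3 FPKM, Sulf1, an extracellular sulfatase, from 13.7 to 31.5 FPKM, and Icam1, a leukocyte adhesion molecule, from 7.54 to 31.1 FPKM.

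Macrophages and fibroblasts also transcribe complement genes, and their markers were read in the same libraries. Of 10 macrophage markers, Ptprc, Tyrobp and Cx3cr1 held 0 reads in every library and 6 had at most 3 reads in each. The summed FPKM of the 10 was 14.97 to 18.1 in Ad-Con and 6.08 to 7.64 in the libraries labelled Ad-PDK4, a difference carried by Cd68, which fell from 14.2 to 4.24 FPKM (log2 change -1.74, limma adjusted p = 0.00044). Without Cd68, left out after its values were seen, the other 9 summed to 1.76 to 2.07 FPKM in Ad-Con and 2.79 to 2.98 FPKM in the libraries labelled Ad-PDK4. That sum was formed with the values known, so no direction is read from it. Lyz2, the other marker tested, read 1.51 and 1.98 FPKM with groups that did not overlap (log2 change 0.36, limma adjusted p = 0.079). Of the other defining macrophage markers, Adgre1 held at most 1 read in a library, and Csf1r, which was too low to test, held 11 to 35 reads in Ad-Con and 56 to 62 in the libraries labelled Ad-PDK4. The part of these markers in the complement values was not tested. The summed FPKM of 10 fibroblast markers was 1741 to 1897 in Ad-Con and 1101 to 1187 in the libraries labelled Ad-PDK4. Of 9 tested markers 6 were lower and 2 higher, Ly6a (3.90) and Dcn (0.83), against 20.8% and 21.8% of all tested genes. Of the defining fibroblast markers, Pdgfra was at -0.05, Dpt at -1.36 and Lum at -1.16. Fibroblast markers at these levels were therefore present in both groups, and their part in the complement values was not tested. Endothelial markers summed to 2.52 to 2.89 FPKM in Ad-Con and 2.72 to 3.28 in the libraries labelled Ad-PDK4. Past the threshold were 0 of 2 tested, against 42.7% of all tested genes. Of the defining endothelial markers, Cdh5 had at most 4 reads in a library and Pecam1 3 to 17, both too low to test. Kdr read 0.536 FPKM in Ad-Con and 0.919 in the libraries labelled Ad-PDK4, without overlap (log2 change 0.68, limma adjusted p = 0.065). The part of these markers in the complement values was not tested either. Smooth muscle markers summed to 172 to 173 FPKM in Ad-Con and 135 to 145 FPKM in the libraries labelled Ad-PDK4. In Ad-Con, Acta2, Cald1 and Tpm2 read 78.0, 56.0 and 27.8 FPKM. Of the defining markers, Tagln, Myh11 and Cnn1 averaged below 0.5 FPKM in both groups. Of 5 tested, 2 were lower, Acta2 (-1.11) and Tpm2 (-0.33), and 1 was higher, Cald1 (0.36). Of all tested genes, 20.8% were lower and 21.8% higher.

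**Figure D4:**
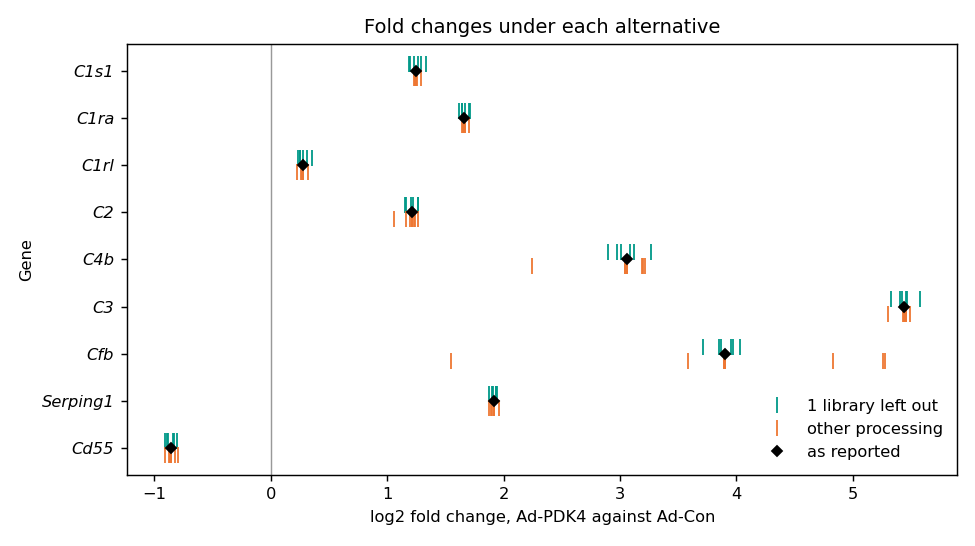
Log2 fold change of each of the 9 genes as reported (diamond) and under each alternative (1 tick per setting, with left-out libraries above and other processing below). The ticks of C3 stay between 5.30 and 5.57 and those of Cd55 between -0.91 and -0.80, whereas those of Cfb spread from 1.55 to 5.27.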

How the data were processed

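RNA sequencing measured 6 libraries of MASMCs, 3 Ad-Con and 3 labelled Ad-PDK4, grouped by their treatment labels and numbered by title. The authors deposited FPKM per gene and library, unpooled. The submitters' processing notes list CASAVA 1.8, fastp, HISAT2 2.0.5, featureCounts 1.5.0-p3, DESeq2 1.20.0 and the build GRCm39. The deposited coordinates instead matched GENCODE mouse release 21 (GRCm38) for 98.3% of 54495 shared identifiers, so GRCm38 is given. The labels and the study's methods name different library kits, and whether counting used strand is not given in the sources used here. FPKM times gene length gave whole reads for 100% of values (tolerance 0.01 reads), and for paired reads each is a fragment. The authors' FPKM were already scaled by median-of-ratios size factors.

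The groups were compared by limma (version 3.58.1, R 4.3.3, trend and robust moderation, no covariates) after log2 transformation with a pseudocount of 0.1. Benjamini-Hochberg adjustment ran over all 13423 genes averaging 0.5 FPKM or more. Adjusted p-values are from this fit unless a left-out library or another setting is named beside them. A fold against a group with at most 3 reads in each library was computed against 3 reads per library. The scripts were tested on simulated data. Python 3.11.15 was used for the rest.

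The members, gene lists and naming rule were chosen with earlier results of these data known. Named genes were the 9 members, Pdk4, every tested complement gene of the lists, the 3 largest rises among the listed factors, tested protein-coding genes starting within 100 kb of a member, the 3 genes of mean FPKM at least 5 most correlated with C3, and defining cell type markers. Other markers, Gm20547 and untested copies lie outside the rule and were named after their values were seen. The values of 2 genes under the rule are not reported here. Alternatives were pseudocounts of 1 and 0.01, no filter or a minimum mean FPKM of 5, 4 rescalings (TPM, median of ratios, quantile, without mtDNA-encoded genes), moderation without trend or robust, the replicate block, limma-voom on recovered reads, and leaving out each library.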

Additional observations from a re-analysis of the deposited data

How the results depend on the processing

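Of the 9 complement genes, 8 kept their direction and their call under every alternative in which they were tested, and C4b and Cfb were not tested with a minimum mean FPKM of 5. C1rl kept its direction in 17 alternatives and its call in 13, the 4 losses being those of left-out libraries given above. The count of tested genes called at adjusted p was 5726, and 4542 to 5394 with 1 library left out. With a 2-fold change it was 890, and 514 with a pseudocount of 1, 372 with a minimum mean FPKM of 5, and 866 to 923 with 1 library left out. Of the 9 genes, 8 to 9 were called with 1 library left out, and 7 of 9 at 2-fold each time. Over all tested genes, same-numbered libraries did not deviate together from their group means (r from -0.046 to -0.0013). A shared culture or batch that moved few genes would not show in this measure, so pairing is not excluded. With the replicate block 5385 genes were called, 883 of them at 2-fold, and 9 and 7 of the 9 complement genes, so the block changed no call among them. Among the 9 and the 13 other complement genes, changes of sign were limited to genes that did not pass. With 1 library left out, Cfp ran from -0.0089 (without replicate 2 labelled Ad-PDK4) to 0.312, C8g from -0.395 to 0.0388 (without Ad-Con replicate 2), and Cr1l from -0.0517 to 0.0389, above 0 without Ad-Con replicate 3 (0.0389) or without replicate 1 (0.0060) or 2 (0.0388) labelled Ad-PDK4. Cr1l was also at 0.0385 as TPM and 0.0015 by limma-voom. C1qbp lost its call in 6 alternatives, with adjusted p of 0.059 as TPM and 0.052 under plain moderation beside the left-out libraries above. Of 13 called neighbours, 11 called factors and 12 called markers, 11, 10 and 12 kept their call under every alternative. The exceptions, Hspa1a, Ypel4 and Rela, kept their direction, and Ypel4 (limma adjusted p = 0.076) and Rela (0.065) lost their call with the block. Cd59a passed without Ad-Con replicate 1 (-0.31, limma adjusted p = 0.049), and C3ar1 without replicate 3 labelled Ad-PDK4 (0.34, limma adjusted p = 0.042). The cause was not tested. Depth limits Cfb in Ad-Con, where 2 or 3 reads per library allow only a lower bound.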
